A study of Mus musculus with 108 samples.

Results

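Imprinted genes are genes that are transcribed mainly from the copy inherited from 1 parent. A list of 37 of them was followed through brain development. The series was of mice with and without a mutation in Cul3, which encodes the scaffold of a ubiquitin ligase. The list was chosen by name from general knowledge of the mouse, with earlier results of these data known. The 37 symbols were matched to Ensembl identifiers, and each matched 1 of the 53465 genes in the deposited count table. RNA was sequenced from 3 brain regions of the same mice, the cerebellum (CB), the cortex (CX) and the hippocampus (HIP), in late embryos (E17.5), at postnatal day 7 (P7) and in adults, which the labels name P35. All mice were on a C57BL/6N background (spelled C56Bl/6N in the labels), and were either wild type (WT) or heterozygous (Cul3+/-, HET in the labels) for a germline insertion of 1 bp in exon 6 of Cul3 made with CRISPR/Cas9. The line descends from 1 founder, and homozygous mutants are not viable. Each period and region had 6 WT and 6 Cul3+/- mice at E17.5 and P7, and 5 of each in adults after 2 adult mice were left out because the labels and a table of the study gave them opposite genotypes. The comparisons held 102 of 108 libraries and 34 of 36 mice. The periods come from different mice, and the labels do not give their sex. Adults are listed in the order of their numbers in the labels, 1, 2, 3, 4 and 6 in CX and 1, 2, 3, 5 and 6 in HIP and CB. Adult 4 in CX is adult 5 in HIP and CB. At P7 the numbers in HIP stand for other mice than in CX and CB for WT mice 3, 5 and 6 and Cul3+/- mice 1, 2, 5 and 6.

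Imprinted genes lie mostly in clusters, where the DNA methylation of a control region, set in the egg or sperm, decides which parental copy is read. Many act on growth before birth, some as growth factors, their receptors or brakes of the cell cycle, and others act in the hypothalamus and in behaviour. In the brain several of these genes change allele or level as neurons mature, with Ube3a, read from the maternal copy in neurons, as the known example. The counts hold no information on the parental allele, so every value below is the sum of both copies.

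Levels are given in CPM, the counts of a gene scaled to a common library total after TMM normalization, per mouse or as the lowest, median and highest of a group of 6. Changes are log2 fold changes of the later period over the earlier, tested by edgeR's quasi-likelihood test with Benjamini-Hochberg adjustment over all genes. A gene was said to rise or fall at an adjusted p of at most 0.1 and a change of at least 2-fold, and to have held its level where the 95% interval of the change lay within 2-fold in either direction. In bulk tissue, fewer cells of a type and less RNA per cell cannot be told apart.

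The libraries held 15126093 to 44411259 counts. The summed level of 4 cerebellum markers was 139 to 1322 CPM in CB and at most 0.98 CPM elsewhere, and that of the cortex markers 164 to 794 CPM in CX, 39.9 to 151 CPM in HIP and 0.593 to 11.1 CPM in CB. The hippocampus markers summed to 323 to 1923 CPM in HIP, 68.9 to 258 CPM in CX and 69.2 to 345 CPM in CB, so on that list HIP and CB overlapped at their edges. Some libraries stood apart. The summed level of 8 choroid plexus markers was over 1000 CPM in 6 WT and 7 Cul3+/- libraries. In WT these were HIP of embryo 2 and adults 3 and 5, and CB of P7 mouse 6 and adults 5 and 6. In Cul3+/- mice these were CB of P7 mice 2, 4, 5 and 6, HIP of P7 mouse 1 and CB of adults 5 and 6. By its label, the Cul3+/- P7 mouse numbered 1 in HIP is the 1 numbered 2 in CB. The CX library of P7 WT mouse 2 had a summed level of 5 hypothalamus markers of 8.70 CPM against at most 0.406 CPM in the other P7 WT CX libraries. In the P7 WT CX group 1 of these 5 markers had a mean of at least 1 CPM, so the sum may rest largely on 1 gene. P7 WT mouse 2 also lacked nearly all Mest RNA, as described with the Mest locus. As a check of the labels, Cul3 ranked first by p in each of the 9 genotype comparisons, at -0.99 to -0.74 on the log2 scale.

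From E17.5 to P35 in WT mice, 11 of the 36 members that could be tested fell in all 3 regions, 5 rose in all 3, and 9 held their level in all 3. Of the 17435 genes tested in all 3 regions, 9.34% fell, 10.8% rose and 27.3% held in all 3. The members' share was above that of all genes for falls, and the counts that rose or held were near it. Because the list was chosen with earlier results of these data known, the shares describe this list only. They are no test of imprinted genes at large. The 11 that fell everywhere were H19, Dlk1, Cdkn1c, Zim1, Magel2, Mkrn3, Peg12, Grb10, Nnat, Asb4 and Plagl1. The 5 that rose everywhere were Snrpn, Ddc, Impact, Rasgrf1 and Nap1l5, and the 9 that held were Mirg, Ube3a, Copg2, Blcap, Sgce, Peg13, Trappc9, Gnas and Igf2r. Of the remaining 11 tested members, Mest and Zdbf2 fell in HIP and CB, Usp29 and Ndn fell in CB, Peg10 fell in HIP, Peg3 rose in CX and HIP, Igf2 rose in CB, Meg3 rose in CX, Slc38a4 rose in CX and fell in CB, and Rian and Kcnq1ot1 passed the test in no region, with Rian held in HIP and CB and Kcnq1ot1 in CX and CB. Phlda2, a regulator of placental growth, was not tested in these fits because its highest level in any library was at most 0.107 CPM.

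**Figure D1:**
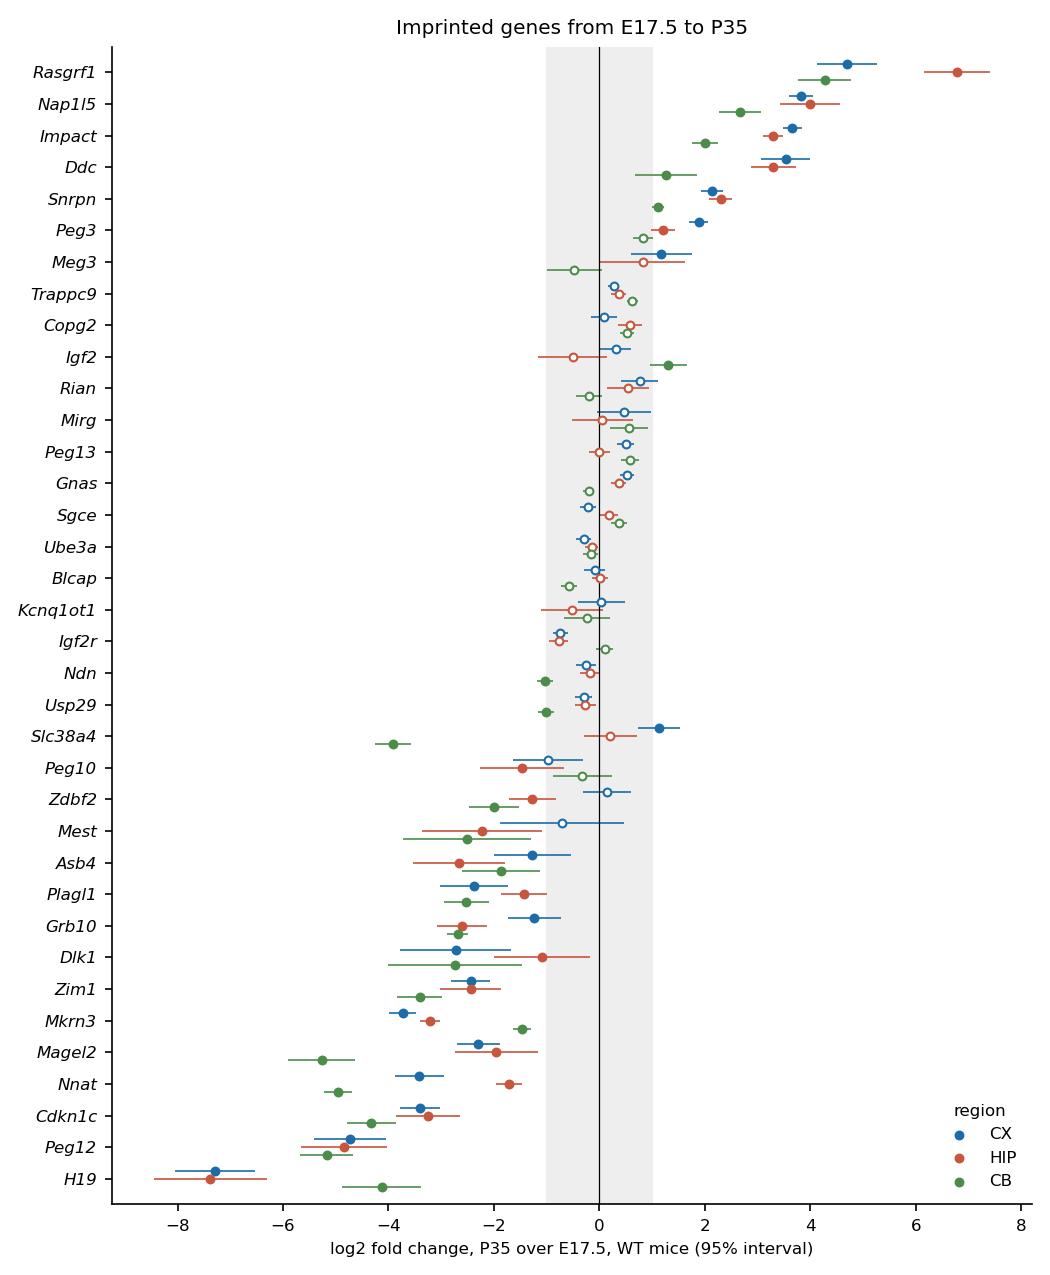
Change of each of the 36 tested imprinted genes from E17.5 to P35 in WT mice, as the log2 fold change with its 95% interval (horizontal axis), with 1 row a gene and 1 colour a region (CX, HIP, CB). Filled points passed the adjusted p of 0.1 and the 2-fold limit, and the grey band marks changes within 2-fold. In CX and HIP, H19 and Peg12 lie lowest, and Rasgrf1 and Nap1l5 lie highest in all 3 regions.

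In CX, 11 of 36 tested members (30.6%) were lower at P35 than at E17.5, where 22.2% of all tested genes were lower, and 8 members (22.2%) were higher against 25.9% of all genes. In HIP, 14 members (38.9%) were lower against 19.6% of all genes and 6 (16.7%) higher against 21.8%. In CB, 16 members (44.4%) were lower against 20.4% and 6 (16.7%) higher against 19.6%. The median log2 fold change of the members was -0.15 in CX, -0.22 in HIP and -0.40 in CB, and that of all tested genes -0.05, -0.06 and -0.03. At the 2-fold limit, the share that rose was a little below that of all genes in every region. The share that fell was above it in HIP and CB, most so in CB, and nearer to it in CX. Of tested imprinted genes outside the list, 2 of 28 fell and 14 rose in CX, 4 of 27 fell and 11 rose in HIP, and 10 of 29 fell and 8 rose in CB.

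The intervals before and after P7 differed between regions. In CX, 5 members fell by P7 (14.5% of all genes) and 11 rose (22.9%), and from P7 to P35 9 fell (11.6%) and 4 rose (10.3%). In HIP, 9 fell by P7 (13.1%) and 7 rose (17.8%), followed by 7 that fell (10.4%) and 4 that rose (7.95%). In CB, 12 fell by P7 (10.1%) and 3 rose (10.0%), and later 11 fell (17.7%) and 9 rose (16.6%). The 3 members that rose in CB by P7 were Igf2, Ddc and Rasgrf1. Mkrn3 held its level until P7 and fell afterwards in all 3 regions. Zim1 did so in CX and HIP, Magel2 and Nnat in HIP, and Peg12 in CB.

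Cell makeup changed over the same periods. The summed level of 4 markers of dividing cells in WT mice was 264 to 678 CPM at E17.5, 49.4 to 74.6 CPM at P7 and 9.59 to 16.4 CPM at P35 in CX. In CB it was 543 to 723, 823 to 1056 and 2.49 to 4.47 CPM, so in CB it was highest at P7. The summed level of 4 neuron markers in CX was 608 to 972 CPM at E17.5 and 4356 to 5012 CPM at P35. The part of these shifts in the members' changes was not tested.

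The Igf2-H19 locus (chromosome 7 of GRCm38) holds a growth factor read from the paternal copy and a non-coding RNA read from the maternal copy, under 1 control region. H19 (chr7:142575529-142578143, minus strand) fell more than any other member in CX and HIP. In CX its lowest, median and highest levels were 17.8, 22.1 and 29.3 CPM at E17.5 and 4.76, 9.67 and 14.3 CPM at P7, and the 5 adults had 0.184, 0.0535, 0.187, 0.114 and 0.181 CPM. In HIP the levels were 20.3, 34.2 and 70.2 CPM at E17.5 and 5.23, 15.5 and 20.4 CPM at P7, with 0.239, 0.124, 0.360, 0.251 and 0.108 CPM in adults. Adult levels this low rest on a few counts a library. No period overlapped another in CX, and in HIP the E17.5 and P7 mice met only at their edges. From E17.5 to P35 the log2 fold change was -7.29 in CX (SE 0.359, edgeR adjusted p = 1.16e-12) and -7.38 in HIP (SE 0.513, edgeR adjusted p = 2.63e-10). In CB, H19 went from 34.9 to 65.9 CPM at E17.5 to 1.28 to 3.04 CPM at P35 (log2 fold change -4.13, SE 0.355, edgeR adjusted p = 3.03e-09), so adult CB kept more H19 RNA than adult CX or HIP.

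Igf2 (chr7:142650766-142666816, minus strand), the insulin-like growth factor, took another course than H19. In CX its median was highest at P7, with 12.9, 17.1 and 19.8 CPM as the lowest, median and highest level at E17.5, 54.0, 68.0 and 88.2 CPM at P7 and 22.1, 17.1, 24.6, 19.2 and 20.6 CPM in the adults. It rose to P7 (log2 fold change 2.01, SE 0.138, edgeR adjusted p = 2.83e-10) and fell afterwards (log2 fold change -1.70, SE 0.145, edgeR adjusted p = 1.02e-08), with no overlap between P7 and the other periods. In CB it ranged over 16.3 to 31.8 CPM at E17.5, 101 to 139.8 CPM at P7 and 42.2 to 66.2 CPM at P35, and unlike in CX the adults stayed above the embryos (log2 fold change 1.31, SE 0.165, edgeR adjusted p = 6.70e-07). Igf2 is made in the meninges and choroid plexus, and the summed level of 8 meninges markers was also highest at P7: in WT CX the ranges were 10.5 to 36.3 CPM at E17.5, 182 to 285 CPM at P7 and 69.8 to 112 CPM at P35, and in CB 16.4 to 121, 422 to 681 and 162 to 207 CPM. Its part in the Igf2 levels was not tested. Exons of an overlapping gene model, Gm49394, cover 62.8% of the Igf2 exon bases but were listed at no more than 0.71 CPM. Igf2r (chr17:12682406-12769664, minus strand), on another chromosome, encodes the receptor that takes up and degrades Igf2. In CB it had the smallest change of all members, from 102, 132 and 144 CPM at E17.5 to 135, 134, 142, 141 and 133 CPM in the adults (log2 fold change 0.10, SE 0.0750, 95% interval -0.06 to 0.26, edgeR adjusted p = 0.222). The path was not flat, since the P7 mice in CB had 67.1 to 79.7 CPM, below both other periods.

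Cdkn1c (chr7:143458339-143461050, minus strand), an inhibitor of cyclin-dependent kinases that brings cells out of the cycle, fell in all 3 regions. In HIP its lowest, median and highest levels were 27.5, 37.5 and 47.1 CPM at E17.5 and 4.13, 7.95 and 10.2 CPM at P7, and the adults had 2.45, 2.61, 6.01, 5.75 and 2.37 CPM (log2 fold change -3.25, SE 0.291, edgeR adjusted p = 8.85e-09 from E17.5 to P35). Adult HIP mice 3 and 5, the 2 adults high in Cdkn1c, were also the 2 HIP adults whose choroid plexus markers summed to over 1000 CPM, and without the libraries that stood apart the change was -3.84. In CB it started higher, at 84.1, 105 and 132 CPM, passed 32.8, 36.4 and 51.4 CPM at P7 and reached 5.83, 3.78, 3.09, 7.26 and 6.68 CPM in the adults (log2 fold change -4.33, SE 0.219, edgeR adjusted p = 1.07e-12). The 3 periods did not overlap in CB. Kcnq1ot1 (chr7:143203458-143296549, minus strand), the long antisense RNA of the same cluster, had the smallest change of all members in CX. It measured 57.0, 81.7 and 116 CPM at E17.5 and 89.0, 53.5, 111, 84.4 and 91.4 CPM in the 5 CX adults, so the periods overlapped almost wholly (log2 fold change 0.03, SE 0.211, 95% interval -0.41 to 0.48, edgeR adjusted p = 0.887).

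In the Dlk1-Dio3 cluster on chromosome 12 the members moved apart. Dlk1 (chr12:109452823-109463336, plus strand), a membrane protein related to Notch ligands and read from the paternal copy, was low throughout and fell in all 3 regions, from 1.71 to 2.27 to 0.0381 to 0.459 CPM in CX (log2 fold change -2.73, SE 0.502, edgeR adjusted p = 6.47e-05). In CB the change was -2.73 (SE 0.607, edgeR adjusted p = 0.000449), and the adults split, with 0.0356, 0.0254, 1.67, 1.66 and 0.0599 CPM in the 5 mice. The 2 high mice, 3 and 5, also had the highest summed hippocampus markers of the CB adults (124, 125, 345, 257 and 143 CPM in the same order), and the highest Peg10, at 15.7, 14.4, 32.6, 28.1 and 13.4 CPM. The cortex markers, which summed to 39.9 to 55.0 CPM in adult WT HIP, were at 0.961, 0.609, 1.67, 1.04 and 0.779 CPM in these CB adults. Of the 3 hippocampus markers, 2 had a mean of at least 1 CPM in this group. The part of tissue from outside the cerebellum was not tested.

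Meg3 (chr12:109541001-109571726, plus strand), Rian (chr12:109603940-109661716, plus strand) and Mirg (chr12:109729764-109749460, plus strand) are non-coding RNAs read from the maternal copy in the same direction, the last a host of many microRNAs and Rian of small nucleolar RNAs. In CB all 3 fell to P7 and rose again afterwards. Rian measured 531, 625.4 and 738 CPM at E17.5, 184, 232 and 285 CPM at P7 and 606, 650.5, 444, 491 and 578 CPM in the adults, with the P7 mice below every mouse of the other periods. Its change from E17.5 to P35 was among the 3 smallest in CB (log2 fold change -0.20, SE 0.115, 95% interval -0.44 to 0.04, edgeR adjusted p = 0.122), while it was lower at P7 (log2 fold change -1.47, SE 0.112, edgeR adjusted p = 2.07e-09) and higher again afterwards (log2 fold change 1.27, SE 0.115, edgeR adjusted p = 7.85e-09). Mirg had 19.4 to 37.3 CPM, 4.24 to 8.67 CPM and 36.6 to 57.6 CPM at the 3 periods, and Meg3 485 to 1287, 122 to 285 and 508 to 829.3 CPM. In CX, Meg3 and Rian rose to P7 (1.35 and 1.44 on the log2 scale, edgeR adjusted p = 0.000153 and 2.65e-07), and Meg3 then held its level while Rian neither held nor passed the test from P7 to P35. The log2 differences between CB and CX at P7 were -2.87 for Meg3, -2.54 for Mirg and -2.36 for Rian (edgeR adjusted p = 1.73e-10, 4.52e-12 and 2.45e-17). In HIP, Mirg was among the 3 members with the smallest change, at 13.2, 22.5 and 37.9 CPM at E17.5 and 30.5, 22.2, 14.9, 31.3 and 23.8 CPM in the adults, and its groups overlapped (log2 fold change 0.06, SE 0.274, 95% interval -0.52 to 0.63, edgeR adjusted p = 0.851).

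**Figure D2:**
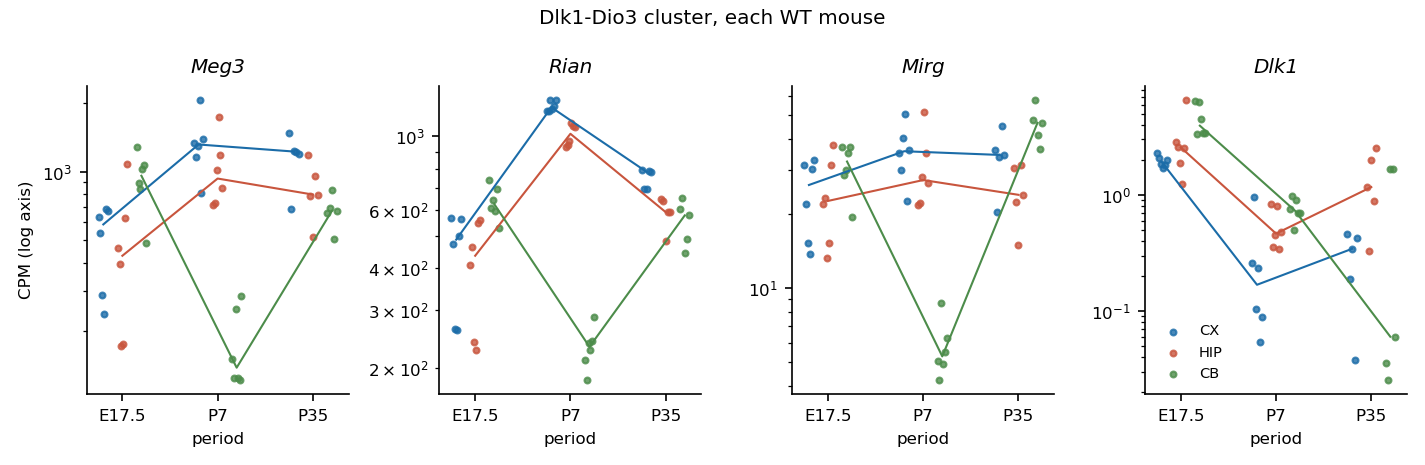
Meg3, Rian, Mirg and Dlk1 in each WT mouse (points, CPM on a log axis) at E17.5, P7 and P35, with lines through the medians of each region. In CB the 3 non-coding RNAs are lowest at P7, where Mirg lies at 4.24 to 8.67 CPM, while in CX and HIP their medians are highest at P7.

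Within E17.5, mice 3 and 4 of each genotype, whose names share a prefix that the other embryos do not have, stood apart in CX and HIP. Their CX libraries had summed dividing-cell markers of 653 and 678 CPM in WT, against 264 to 375 CPM in the other 4 embryos. In the same 2 libraries Rian was 263 and 261 CPM against 474 to 566 CPM. Grb10 was 151 and 190.0 CPM there against 61.1 to 75.8 CPM. These 2 embryos raised the E17.5 mean of Grb10 in CX, so its fall there rests partly on them. No fit left out both. The labels do not say what the prefix stands for. Embryo 6 of the WT group was high in HIP for Magel2, at 16.5 CPM against at most 4.90 CPM in the other 5, and for Peg10, at 69.1 CPM against at most 34.6 CPM.

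The Peg3 domain on chromosome 7 holds zinc-finger genes and a ubiquitin protease. Peg3 (chr7:6703892-6730431, minus strand) and Usp29 (chr7:6730578-6967219, plus strand) start next to each other and run in opposite directions, both read from the paternal copy. Their start regions in RefSeq share 263 bases of a window of 300. The window of Peg3 is shown for the palindrome GGGGCCCC, in capitals, which stood in 3 of 48 windows of the members (6.25%; Peg3, Usp29 and Rasgrf1, the first 2 sharing bases) and in 1.08% of 32851 windows of all genes, searched on both strands. The 250 bases before the start, from RefSeq on GRCm38.p6, read as follows.
Peg3 start region, chr7:6730420-6730669, minus strand: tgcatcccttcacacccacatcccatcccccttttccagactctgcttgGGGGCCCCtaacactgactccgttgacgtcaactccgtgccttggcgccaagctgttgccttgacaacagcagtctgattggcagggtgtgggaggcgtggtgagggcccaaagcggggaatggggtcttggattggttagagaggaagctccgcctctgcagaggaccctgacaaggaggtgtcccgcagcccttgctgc
A match describes letters only.

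Although they share a start region, Peg3 and Usp29 did not move together. Peg3 measured 97.8, 120.0 and 121 CPM at E17.5 and 261, 301 and 363 CPM at P7 in CX, and 449.7, 430.4, 414, 459 and 399 CPM in the adults, with no overlap between the periods (log2 fold change 1.89, SE 0.0847, edgeR adjusted p = 3.23e-13). Usp29 in CX ranged over 78.5 to 93.9, 115 to 149 and 63.2 to 79.3 CPM at the 3 periods and held its level (log2 fold change -0.30, SE 0.0796, 95% interval -0.47 to -0.13, edgeR adjusted p = 0.00197). In CB the log2 change from E17.5 to P35 was 0.82 for Peg3, short of 2-fold, and -1.02 for Usp29 (edgeR adjusted p = 1.38e-07 and 1.15e-10). Zim1 (chr7:6671269-6696450, minus strand), a zinc-finger gene read from the maternal copy, fell everywhere, and in HIP it measured 23.2 to 32.6 CPM at P7 before it reached 4.22 to 5.42 CPM in adults (log2 fold change -2.52, SE 0.272, edgeR adjusted p = 3.37e-07).

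The cluster of the Prader-Willi and Angelman region on chromosome 7 held 6 members, of which Magel2, Mkrn3 and Peg12 fell in all 3 regions. Peg12 (chr7:62461871-62464510, minus strand), a relative of the GSK3-binding Frat proteins, had levels of 4.16, 6.47 and 13.3 CPM at E17.5 and 1.10, 1.37 and 1.71 CPM at P7 in CX, and 0.153, 0.267, 0.250, 0.381 and 0.362 CPM in the adults. In HIP they were 6.53, 10.5 and 24.8, then 1.75, 2.16 and 2.98 CPM, and 0.449, 0.579, 0.612, 0.566 and 0.215 CPM in the adults. In CB they were 10.4, 11.8 and 14.4 CPM at E17.5 and 7.197, 9.76 and 10.7 CPM at P7, and the adults had 0.427, 0.254, 0.0355, 0.464 and 0.450 CPM. The periods did not overlap in CX or HIP, while in CB the embryos and the P7 mice met and all adults lay far below. The log2 change from E17.5 to P35 was -4.73 in CX, -4.84 in HIP and -5.17 in CB (SE 0.325, 0.392 and 0.240, edgeR adjusted p at most 2.17e-09). By P7 the change was -2.48 in CX, -2.66 in HIP and -0.35 in CB. In CX and HIP the 2 embryos highest in Peg12 were mice 3 and 4, those high in dividing-cell markers.

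Mkrn3 (chr7:62417593-62420139, minus strand), a makorin RING-finger protein known as a brake on puberty, fell after P7. In CX its levels were 16.9, 18.4 and 20.4 CPM at E17.5, 19.3, 22.4 and 27.8 CPM at P7 and 1.5, 1.20, 1.19, 1.41 and 1.75 CPM in the adults. In HIP they were 15.5, 18.04 and 19.5 CPM and 21.96, 24.8 and 27.3 CPM, with 2.04, 1.90, 1.80, 1.79 and 1.94 CPM in the adults. All adults lay far below all younger mice, and the fall came after P7 (log2 fold change -3.99, SE 0.123, edgeR adjusted p = 1.53e-14 in CX, and log2 fold change -3.67, SE 0.0905, edgeR adjusted p = 4.19e-15 in HIP). In CB it also held to P7 and then fell (log2 fold change -1.07, SE 0.0831, edgeR adjusted p = 8.59e-10). Adult CB kept more of it, at 4.90 to 6.80 CPM (log2 fold change -1.46, SE 0.0835, edgeR adjusted p = 6.43e-12 from E17.5).

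Magel2 (chr7:62377010-62381640, plus strand), a MAGE-family protein of the hypothalamus and of endosome sorting, had the largest fall of all members in CB. It measured 7.66, 11.4 and 15.3 CPM at E17.5, 1.67, 1.89 and 3.29 CPM at P7 and 0.178, 0.228, 0.639, 0.218 and 0.240 CPM in the 5 adults, with no overlap between periods (log2 fold change -5.27, SE 0.300, edgeR adjusted p = 6.34e-12). In CX it rose from 2.38 to 4.14 CPM to 6.73 to 10.1 CPM at P7 (log2 fold change 1.23, SE 0.154, edgeR adjusted p = 8.02e-07) before it fell to 0.381 to 0.843 CPM (log2 fold change -3.52, SE 0.191, edgeR adjusted p = 2.40e-11). Its neighbour Ndn (chr7:62346569-62350262, plus strand), another MAGE-family gene of neurons, was higher at P7 too in CX, with 177 to 239, 346 to 481 and 161 to 196 CPM at the 3 periods, and ended near its embryonic level (log2 fold change -0.25, SE 0.0907, 95% interval -0.44 to -0.06, edgeR adjusted p = 0.0153).

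Snrpn (chr7:59982495-60140219, minus strand), which encodes a spliceosome protein of neurons, rose in all 3 regions. In CX the levels were 104, 144 and 157 CPM at E17.5, 410.5, 454 and 506 CPM at P7 and 598, 665, 579, 598 and 604 CPM in adults, without overlap (log2 fold change 2.13, SE 0.1002, edgeR adjusted p = 5.99e-13). Other gene models, Gm38393 and Snurf, overlap 27.3% and 10% of its exon bases, so the split of reads among them is uncertain. Ube3a (chr7:59228750-59311536, plus strand), the ubiquitin ligase of Angelman syndrome, held its level in all 3 regions. In CB its change was among the 3 smallest, from 239.5, 241 and 254 CPM at E17.5 to 212, 225, 201, 247 and 204 CPM in the adults, with overlapping groups (log2 fold change -0.16, SE 0.0679, 95% interval -0.31 to -0.02, edgeR adjusted p = 0.0338).

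Mest (chr6:30723547-30748465, plus strand), a hydrolase-like protein of the endoplasmic reticulum read from the paternal copy, fell in HIP and CB. Its levels in CB were 66.4, 71.8 and 84.2 CPM at E17.5 and 10.5, 10.3, 14.9, 16.6 and 12.6 CPM in the adults (log2 fold change -2.51, SE 0.581, edgeR adjusted p = 0.000648), and in HIP 92.2, 110.1 and 128 CPM and 23.8, 19.9, 26.3, 25.7 and 21.9 CPM (log2 fold change -2.22, SE 0.540, edgeR adjusted p = 0.00112). In both regions every adult lay below every embryo. In CX the adults had 41.4, 44.2, 57.3, 50.6 and 46.6 CPM against 64.5 to 88.4 CPM in embryos, a difference in the same direction that did not pass the test (log2 fold change -0.71, SE 0.562, edgeR adjusted p = 0.251). A P7 mouse far below the rest was part of this fit.

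P7 WT mouse 2 had almost no Mest RNA in any of its 3 regions. It measured 0.0300 CPM in CX against 47.6 to 63.5 CPM in the other 5 WT mice, 0.354 CPM in HIP against 43.2 to 52.4 CPM, and 0.0820 CPM in CB against 45.9 to 60.4 CPM. Over the other 99 libraries the lowest level was 10.1 CPM. Copg2 (chr6:30747554-30896794, minus strand), a coatomer subunit of vesicle transport whose gene runs toward Mest from the other side and overlaps its end on the opposite strand by 912 bases, was higher in that mouse than in the other 5: 89.0 CPM in CX against 50.3 to 59.8 CPM, 87.1 CPM in HIP against 58.5 to 66.5 CPM, and 97.1 CPM in CB against 75.0 to 83.2 CPM. The mouse and both genes were singled out after their values were seen. Of 10904 genes with a median of at least 5 CPM in all 3 regions of P7 WT mice, Mest was the 1 gene more than 2-fold below the lowest of the other mice in all 3 regions, and 0 genes were more than 2-fold above the highest. The other 6 measured genes within 500 kb on either side stood between -0.30 and 0.29 from the median of the other mice on the log2 scale. The cause of the pattern was not tested, and it was seen in 1 mouse.

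Without that mouse, the log2 change of Mest from E17.5 to P35 in CX was -0.70 with an edgeR adjusted p = 4.35e-06, still short of 2-fold. From P7 to P35 it was -0.20 in CX (edgeR adjusted p = 0.106), against 0.06 with the mouse. In HIP the same interval gave -0.94 without the mouse and -0.68 with it (edgeR adjusted p = 4.55e-07 and 0.274), and in CB -2.01 and -1.74 (edgeR adjusted p = 1.07e-10 and 0.00971). Copg2 had among the smallest changes in CX, from 77.9, 88.7 and 98.9 CPM at E17.5 to 94.8, 102, 86.3, 95.6 and 89.1 CPM in adults, with overlapping groups (log2 fold change 0.08, SE 0.116, 95% interval -0.16 to 0.33, edgeR adjusted p = 0.528).

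The start regions of the 2 genes are shown because the mouse that lacked Mest RNA had the neighbouring gene raised, with CG dinucleotides, where DNA methylation sits, in capitals. RefSeq on GRCm38.p6 gives 3 windows for Mest, of which 2 are shown, each as the 250 bases before the start.
Mest upstream start, chr6:30733256-30733505, plus strand: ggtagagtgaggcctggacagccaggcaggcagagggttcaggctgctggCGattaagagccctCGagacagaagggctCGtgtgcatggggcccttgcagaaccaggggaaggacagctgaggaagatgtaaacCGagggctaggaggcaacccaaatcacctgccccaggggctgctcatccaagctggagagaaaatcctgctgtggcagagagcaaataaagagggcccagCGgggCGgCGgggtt
Mest downstream start, chr6:30737800-30738049, plus strand: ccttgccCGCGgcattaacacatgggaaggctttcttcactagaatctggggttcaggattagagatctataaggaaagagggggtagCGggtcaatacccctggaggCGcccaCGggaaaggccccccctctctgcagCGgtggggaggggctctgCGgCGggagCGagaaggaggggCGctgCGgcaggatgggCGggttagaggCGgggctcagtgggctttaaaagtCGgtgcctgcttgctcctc
Copg2 start, chr6:30896795-30897044, minus strand: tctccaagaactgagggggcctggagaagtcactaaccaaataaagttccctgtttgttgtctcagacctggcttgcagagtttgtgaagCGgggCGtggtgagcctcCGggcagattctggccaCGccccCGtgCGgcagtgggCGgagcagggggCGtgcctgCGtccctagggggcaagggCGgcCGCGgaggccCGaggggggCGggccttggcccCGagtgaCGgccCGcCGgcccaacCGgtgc
The 250 bases shown hold 7, 14 and 19 CG dinucleotides in this order. The whole windows of 300 bases hold 8 to 17 for the 3 of Mest and 25 for Copg2. RefSeq windows of 300 bases were found for 30 of the 37 members, 48 windows in all, with a median of 13 CG dinucleotides against 7 over all 32851 windows. The counts do not tell which start was used.

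**Figure D3:**
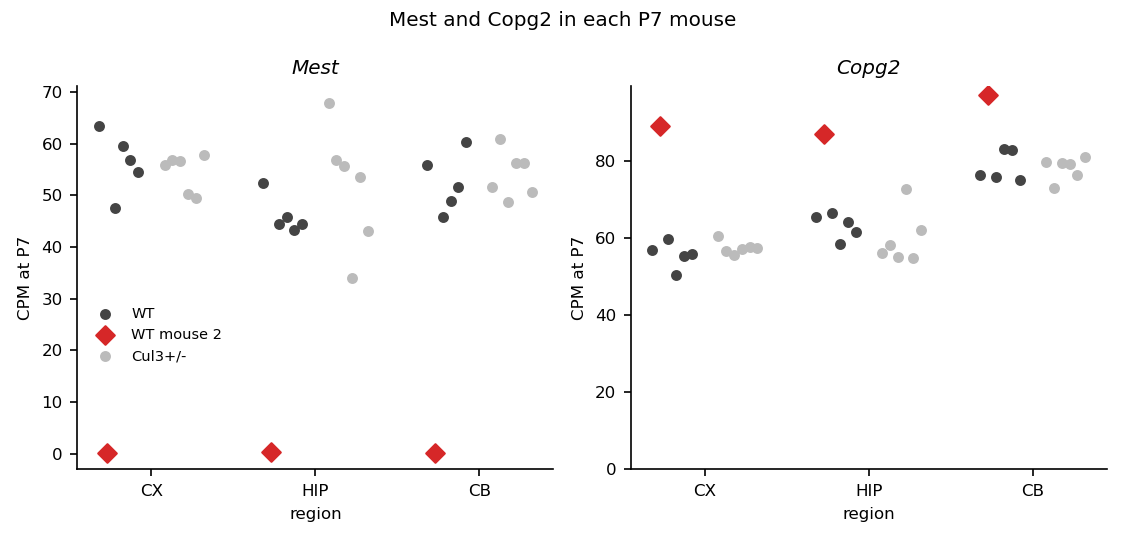
Mest (left) and Copg2 (right) in each P7 mouse by region, in CPM, with WT mice in dark grey, Cul3+/- mice in light grey and WT mouse 2 as a red diamond. The diamond lies at 0.0300, 0.354 and 0.0820 CPM for Mest, below all other mice, and above all of them for Copg2.

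Grb10 and Ddc are neighbours on chromosome 11 and moved in opposite directions. Grb10 (chr11:11930508-12038683, minus strand), an adaptor that restrains insulin and growth-factor signalling, is read from the maternal copy in most tissues and from the paternal copy in neurons. It fell in CB from 154, 176 and 199 CPM at E17.5 through 43.7, 52.8 and 63.9 CPM at P7 to 24.6, 24.8, 31.1, 28.2 and 27.7 CPM in adults, without overlap (log2 fold change -2.69, SE 0.0979, edgeR adjusted p = 8.21e-15). Ddc (chr11:11814101-11898144, minus strand), the decarboxylase that makes dopamine and serotonin, rose in CX from 0.285 to 0.738 to 4.76 to 6.58 CPM (log2 fold change 3.53, SE 0.221, edgeR adjusted p = 3.65e-11) and less in CB, from 0.962 to 2.94 to 3.02 to 5.68 CPM (log2 fold change 1.26, SE 0.282, edgeR adjusted p = 0.000468).

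Nnat (chr2:157560078-157562522, plus strand), a small membrane proteolipid of developing neurons, lies in an intron of Blcap (chr2:157556362-157571274, minus strand). Per kb of exon it was the most abundant member at E17.5 in all 3 regions, with a mean of 349 CPM per kb in CX and 779 in CB. In CB it measured 1290.0, 1428 and 1620.5 CPM at E17.5, 261, 287 and 323 CPM at P7 and 48.7, 54.1, 34.1, 40.3 and 52.0 CPM in adults (log2 fold change -4.96, SE 0.126, edgeR adjusted p = 6.20e-17). In CX the levels were 536, 585 and 789 CPM, 212, 316 and 588 CPM and 54.5, 59.6, 67.6, 49.0 and 72.5 CPM (log2 fold change -3.41, SE 0.222, edgeR adjusted p = 6.25e-11). Adults lay below all younger mice in both regions, and the highest P7 value in CX belonged to WT mouse 2, the library with the raised sum of hypothalamus markers. In HIP Nnat held its level to P7 and adults kept 181 to 232 CPM (log2 fold change -1.71, SE 0.119, edgeR adjusted p = 2.54e-10).

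Blcap, named for bladder cancer and found in most tissues, held while the gene inside it fell. In CX it had 57.8, 69.2 and 79.6 CPM at E17.5 and 64.9, 68.9, 65.2, 66.6 and 65.1 CPM in adults (log2 fold change -0.09, SE 0.0926, 95% interval -0.28 to 0.11, edgeR adjusted p = 0.379). In HIP it had 64.1, 75.4 and 83.8 CPM and 71.6, 74.8, 79.6, 72.8 and 74.3 CPM (log2 fold change 0.01, SE 0.0709, 95% interval -0.14 to 0.16, edgeR adjusted p = 0.907). Adults and embryos overlapped in both regions, and P7 was higher, with medians of 95.01 and 101 CPM.

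Of the 3 members on proximal chromosome 6, Asb4 (chr6:5383386-5433022, plus strand), a SOCS-box protein, fell everywhere from low levels, in HIP from 1.80 to 9.34 to 0.394 to 1.12 CPM (log2 fold change -2.66, SE 0.417, edgeR adjusted p = 1.31e-05). Peg10 (chr6:4747306-4760517, plus strand), derived from a retrotransposon, fell in HIP (log2 fold change -1.46, SE 0.379, edgeR adjusted p = 0.00191), where its embryos spread over 10.98 to 69.1 CPM. Sgce (chr6:4674350-4747207, minus strand), the epsilon-sarcoglycan gene of myoclonus-dystonia, which starts beside Peg10 in the other direction, held in all 3 regions, with log2 changes of -0.22, 0.18 and 0.37 in CX, HIP and CB.

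Peg13 (chr15:72805600-72810324, minus strand), a non-coding RNA, lies within Trappc9 (chr15:72589620-73061204, minus strand), a gene of vesicle traffic, and both held. In HIP, Peg13 had the smallest change of all members, from 138, 163 and 216 CPM at E17.5 to 163, 171, 171, 183 and 163 CPM in adults, with adults inside the range of embryos (log2 fold change 0.00, SE 0.0906, 95% interval -0.19 to 0.19, edgeR adjusted p = 0.994). At P7 it was lower, at 117 to 137 CPM (log2 fold change -0.45, SE 0.0866, edgeR adjusted p = 0.000153). Trappc9 changed by 0.28, 0.37 and 0.62 on the log2 scale in CX, HIP and CB.

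The largest rises belonged to Rasgrf1 and Nap1l5, both read from the paternal copy. Rasgrf1 (chr9:89909908-90026977, plus strand), a Ras exchange factor at synapses, had 4.83, 8.74 and 16 CPM at E17.5, 39.4, 57.8 and 66.9 CPM at P7 and 246, 255, 274, 272 and 258 CPM in adults in CX (log2 fold change 4.69, SE 0.272, edgeR adjusted p = 1.19e-11). In HIP it went from 1.02, 3.29 and 6.09 CPM through 57.0, 75.2 and 83.7 CPM to 392, 370.4, 399, 369 and 385 CPM (log2 fold change 6.78, SE 0.300, edgeR adjusted p = 5.36e-13). In CB the levels were 4.81, 8.32 and 13.4 CPM, 12.2, 16.7 and 27.2 CPM and 141, 143, 239, 159 and 142 CPM (log2 fold change 4.27, SE 0.239, edgeR adjusted p = 4.80e-12). No period overlapped the next in CX or HIP, and in CB the embryos and P7 mice met. Adult CB mouse 3, high in hippocampus markers, was the highest CB adult.

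Nap1l5 (chr6:58905233-58907076, minus strand), a brain gene related to nucleosome assembly proteins, measured 17.8, 21.3 and 22.9 CPM at E17.5, 81.6, 107 and 128 CPM at P7 and 289, 306, 294, 308 and 301 CPM in adults in CX (log2 fold change 3.83, SE 0.106, edgeR adjusted p = 7.01e-16). In HIP it measured 3.97, 12.3 and 20.5 CPM, 83.4, 90.7 and 103 CPM and 179, 209, 187, 210.4 and 202 CPM (log2 fold change 3.99, SE 0.273, edgeR adjusted p = 2.02e-10). In CB it held to P7, with 37.1, 47.9 and 60.3 CPM and then 33.4, 52.0 and 83.9 CPM, and rose to 316, 325, 238, 303 and 335 CPM in adults (log2 fold change 2.67, SE 0.188, edgeR adjusted p = 1.55e-10). Adults lay above all younger mice in each region.

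Impact, which guards translation by inhibiting the kinase Gcn2, rose in CX from 27.5 to 32.6 CPM to 376, 401, 338, 399 and 395 CPM in the adults (log2 fold change 3.65, SE 0.0853, edgeR adjusted p = 1.01e-16). Plagl1 (chr10:13060504-13131694, plus strand), a zinc-finger gene of growth arrest, fell everywhere, in CB from 38.9 to 55.5 to 4.91 to 11.6 CPM (log2 fold change -2.53, SE 0.201, edgeR adjusted p = 9.66e-10). Zdbf2 (chr1:63273265-63314576, plus strand), a zinc-finger gene, held in CX (0.14 on the log2 scale) and fell in HIP and CB (-1.27 and -1.999). Slc38a4 (chr15:96994820-97055956, minus strand), an amino acid transporter, rose in CX from 0.5263 to 1.44 to 1.84 to 2.32 CPM (log2 fold change 1.139, SE 0.189, edgeR adjusted p = 2.09e-05) and fell in CB from 4.37 to 6.14 to 0.273 to 0.498 CPM (log2 fold change -3.92, SE 0.161, edgeR adjusted p = 4.69e-14). Gnas (chr2:174284320-174346744, plus strand), the stimulatory G-protein subunit, held at 484 to 592 CPM in embryos and 756 to 861 CPM in adults in CX.

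**Figure D4:**
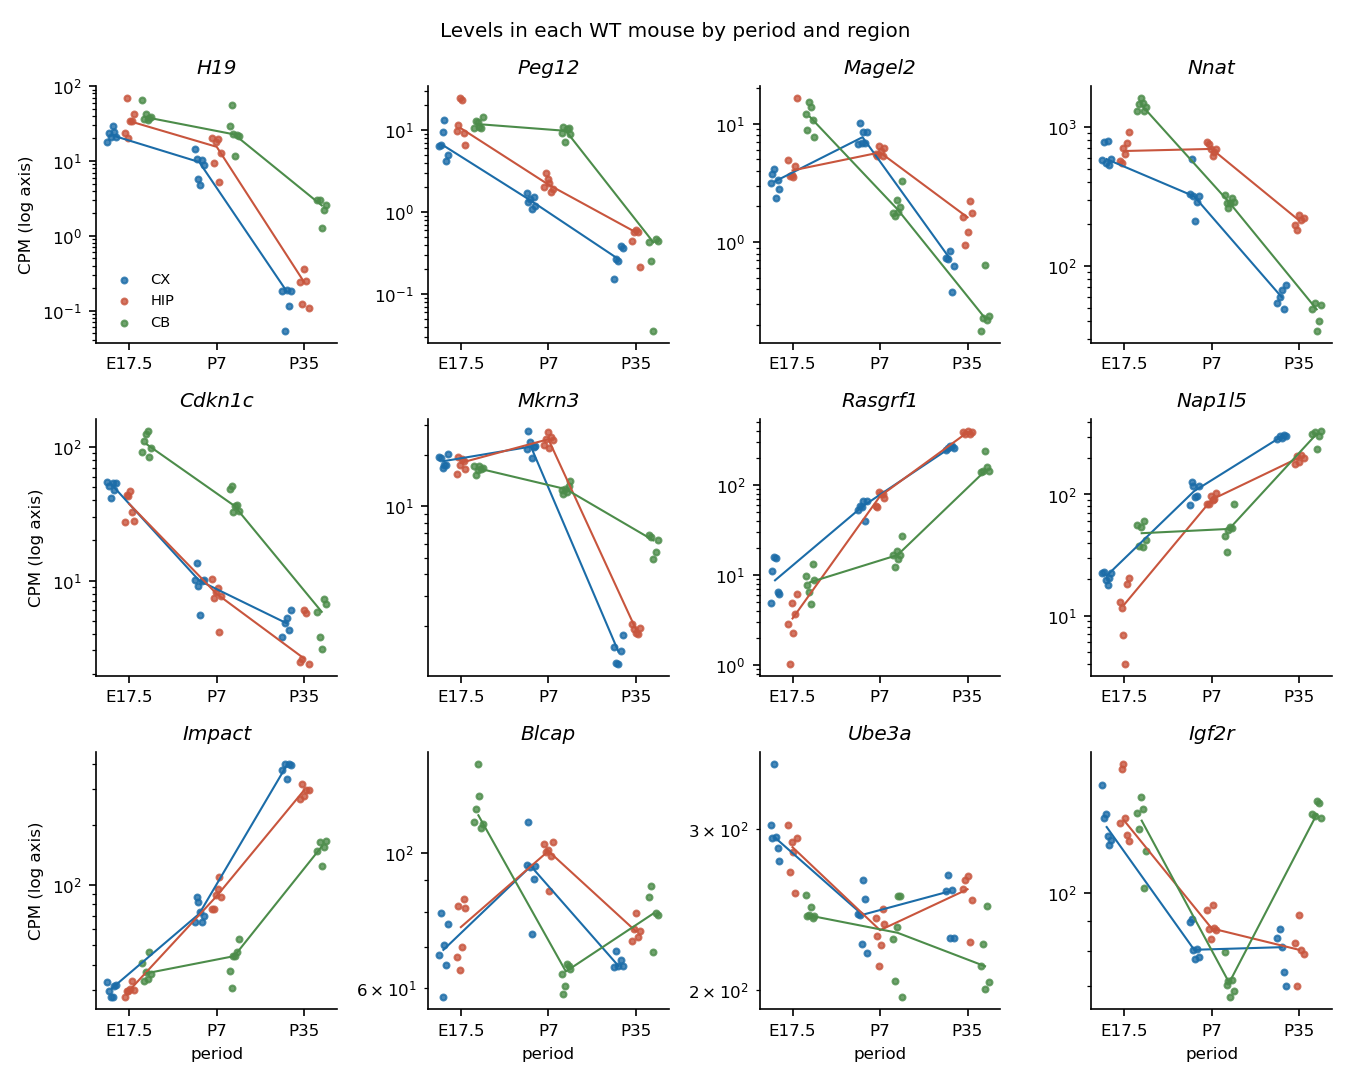
Levels of 12 imprinted genes in each WT mouse (points, CPM on a log axis) at E17.5, P7 and P35, with lines through the medians of CX, HIP and CB. H19 and Peg12 end below 1 CPM in CX and HIP, Mkrn3 falls after P7, and Rasgrf1, Nap1l5 and Impact rise in all 3 regions.

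Per kb of exon the order of the members turned over with age. At E17.5 in CX, Nnat stood at 349 CPM per kb, ahead of Snrpn at 63.6 and Ndn at 56.9. In adult CX the leading members were Snrpn at 282, Nap1l5 at 162 and Impact at 74.4 CPM per kb. In adult CB, Snrpn and Nap1l5 led as well, at 215 and 165 CPM per kb.

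By the copy that is usually read, as known in general, 21 tested members are paternal, 9 maternal, and 6 depend on the tissue. From E17.5 to P35, 6 paternal members fell and 6 rose in CX, 9 fell and 5 rose in HIP, and 11 fell and 5 rose in CB. Of the maternal members 4 fell in each region, and 1, Meg3, rose in CX. Of those that depend on the tissue, Grb10 fell and Ddc rose in each region, and the other 4 held. These counts stand beside the shares of all genes that fell and rose over the same interval, 22.2% and 25.9% in CX, 19.6% and 21.8% in HIP, and 20.4% and 19.6% in CB. A further list of 36 imprinted genes that are not members gave these counts from E17.5 to P35, to be read against the same shares: 14 of 28 tested rose and 2 fell in CX, 11 of 27 rose and 4 fell in HIP, and 8 of 29 rose and 10 fell in CB. Among them Dio3, which inactivates thyroid hormone and lies in the cluster of Meg3, changed by -5.10 on the log2 scale in CB and by 1.53 in CX (edgeR adjusted p = 1.91e-12 and 0.0419).

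Between regions of the same WT mice, the counts were larger for CB against CX than for HIP against CX, among members as among all genes. At E17.5, 10 members were higher in CB than in CX (against 15.5% of all genes) and 0 lower (against 6.04%). At P7, 8 were lower (18.7%) and 5 higher (15.5%), and at P35 5 were lower (15.8%) and 4 higher (12.5%). Of HIP against CX the counts were 1 lower (3.63%) and 3 higher (10.6%) at E17.5, 1 lower (6.72%) and 1 higher (5.13%) at P7, and 1 lower (6.97%) and 4 higher (5.45%) at P35. The 10 members higher in embryonic CB were Peg3, Cdkn1c, Meg3, Nnat, Nap1l5, Dlk1, Asb4, Magel2, Ddc and Slc38a4, which differed by 1.04 to 2.67 on the log2 scale. Without the libraries that stood apart, HIP against CX at P7 gave 0 lower and 3 higher, where with them Kcnq1ot1 was lower and Nnat higher. The share of all genes without those libraries is not given here.

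In adults the members higher in CB than in CX were H19, at 3.02, 3.04, 1.28, 2.21 and 2.55 CPM against 0.184, 0.0535, 0.187, 0.114 and 0.181 CPM (log2 fold change 4.09, SE 0.607, edgeR adjusted p = 4.70e-07), Mkrn3 (log2 fold change 2.14, SE 0.0926, edgeR adjusted p = 7.33e-20), Igf2 and Peg10. Mest, Slc38a4, Zdbf2, Impact and Magel2 were lower in CB, with Mest at 10.5, 10.3, 14.9, 16.6 and 12.6 CPM against 41.4, 44.2, 57.3, 50.6 and 46.6 CPM (log2 fold change -1.86, SE 0.113, edgeR adjusted p = 5.70e-16). No mouse of 1 region reached into the range of the other for H19, Mkrn3 or Mest. At P7, Peg12 stood out in CB at 7.197 to 10.7 CPM against 1.10 to 1.71 CPM in CX (log2 fold change 2.84, SE 0.235, edgeR adjusted p = 1.07e-12), where its change since E17.5 was -0.35. Adult HIP differed from CX most in Dlk1 and Nnat, which were higher in HIP (log2 fold change 1.81, SE 0.156, edgeR adjusted p = 2.44e-11 for Nnat).

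The change from E17.5 to P35 was itself compared between regions. It was lower in CB than in CX for 14 members (against 21.0% of all genes) and higher for 2 (against 11.8%). For HIP against CX it was lower for 4 (10.8%) and higher for 2 (4.13%). The largest difference was that of Slc38a4 (log2 fold change -5.11, SE 0.280, edgeR adjusted p = 7.76e-17), which rose in CX and fell in CB. For Meg3 it was -1.82 and for Mest -1.82 on the log2 scale (edgeR adjusted p = 0.000295 and 1.42e-12). The 2 members that fell less in CB were H19 and Mkrn3. Rasgrf1 rose more in HIP than in CX (log2 fold change 2.09, SE 0.392, edgeR adjusted p = 6.57e-05) and Nnat fell less there (log2 fold change 1.67, SE 0.206, edgeR adjusted p = 6.87e-08).

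The Cul3+/- mice, which share no mouse with the WT groups, gave a second reading of the change from E17.5 to P35. The embryos of both genotypes carry the same name prefixes. In CX, 11 members fell (against 21.3% of all genes) and 7 rose (against 26.2%). In HIP, 13 fell (20.6%) and 7 rose (22.8%), and in CB 18 fell (22.2%) and 5 rose (19.6%). H19 changed by -7.36 in CX, Peg12 by -5.83, Rasgrf1 by 4.51 and Nap1l5 by 3.84 on the log2 scale, beside -7.29, -4.73, 4.69 and 3.83 in WT. A few members passed in 1 genotype and not in the other. In CX this was Slc38a4 (1.139 in WT and 0.84 in Cul3+/-). In HIP these were Igf2 (-0.51 and -1.02), Dlk1 (-1.09 and -0.45), Meg3 (0.82 and 1.35) and Peg10 (-1.46 and -0.89). In CB these were Igf2 (1.31 and 0.71), Ndn (-1.03 and -0.87), Meg3 (-0.48 and -1.11), Kcnq1ot1 (-0.24 and -1.07) and Peg10 (-0.32 and -1.56). The difference between genotypes in these changes was not tested.

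Between Cul3+/- and WT mice of the same period and region, the comparison for which the series was made, 0 members passed an adjusted p of 0.1 in any of the 9 datasets by edgeR's quasi-likelihood test. The share of all genes that passed was 0.00603%, 0.00586% and 0.00568% at E17.5 in CX, HIP and CB, 0.00566%, 0.00563% and 0.00570% at P7, and 0.00569%, 0.00584% and 0.00584% at P35, which is 1 gene, Cul3, in each. At an unadjusted p under 0.05 the number of members was 0, 1 and 0 at E17.5, 0, 1 and 1 at P7, and 3, 2 and 8 at P35. Of all genes tested, 1.67%, 2.29% and 3.50% were under it at E17.5, 3.22%, 5.05% and 4.89% at P7, and 3.66%, 6.25% and 14.4% at P35. By DESeq2 and by edgeR's likelihood ratio test 1 member passed, Kcnq1ot1 in adult CB, and RUVs, which removes unwanted variation with 3 or 5 factors, gave at most 2 in a dataset. The shares of all genes that passed at these other settings are not given here, so these counts have no background to be read against. The interval of most members lay within 2-fold of no difference, for 26 of 36 tested in embryonic HIP, the fewest, and for 34 of 34 in adult CX.

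Kcnq1ot1 in adult CB had the smallest p of any member in any dataset. The WT mice had 50.1, 56.5, 78.4, 74.2 and 79.0 CPM and the Cul3+/- mice 47.2, 48.0, 39.0, 49.7 and 37.4 CPM (log2 fold change -0.63, SE 0.140, edgeR adjusted p = 0.293). All 5 Cul3+/- mice lay below all 5 WT mice, by a margin of less than 1 CPM at the edge. The adjusted p was 0.0149 by DESeq2 and 0.0137 by the likelihood ratio test. Adult CB also had the most genes at an unadjusted p under 0.05, 2459, against 277 to 1070 in the other datasets. There, 8 members were under 0.05, of which Meg3, Kcnq1ot1, Peg3, Zim1, Peg10, Rasgrf1 and Igf2r were lower in Cul3+/- mice and Impact was higher. Peg10 and Rasgrf1 were highest in WT mouse 3 of this group, 1 of the 2 mice with raised hippocampus markers. Choroid plexus markers were over 1000 CPM in mice 5 and 6 of both genotypes, and without these libraries the log2 fold change of Kcnq1ot1 was -0.48 (edgeR adjusted p = 0.706).

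In embryonic HIP the smallest p was that of Peg10, with 10.98, 22.6 and 69.1 CPM as the lowest, median and highest level in WT mice and 9.03, 15.1 and 21.2 CPM in Cul3+/- mice (log2 fold change -0.94, SE 0.376, edgeR adjusted p = 0.941). The groups overlapped, and WT mouse 6 was the highest. In P7 CB it was Grb10, at 43.7, 52.8 and 63.9 CPM in WT and 52.0, 65.5 and 75.3 CPM in Cul3+/- mice (log2 fold change 0.30, SE 0.103, edgeR adjusted p = 0.915), with overlap. Choroid plexus markers also differed there, with a median sum of 7.47 CPM in WT and 1479.7 CPM in Cul3+/- mice, and 1 of 6 WT and 4 of 6 Cul3+/- libraries over 1000 CPM. Without the libraries that stood apart the log2 fold change was 0.30 (edgeR adjusted p = 1). In adult HIP it was Mkrn3, at 2.04, 1.90, 1.80, 1.79 and 1.94 CPM in WT and 2.22, 2.52, 2.16, 2.43 and 2.56 CPM in Cul3+/- mice (log2 fold change 0.33, SE 0.111, edgeR adjusted p = 0.796), where the groups did not overlap. In adult HIP the choroid plexus markers were over 1000 CPM in WT mice 3 and 5 and in no Cul3+/- mouse, and without those 2 libraries the log2 fold change was 0.28 (edgeR adjusted p = 0.411).

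In adult CX the smallest p was that of Slc38a4, with 1.84, 1.87, 1.90, 2.21 and 2.32 CPM in WT and 1.87, 1.55, 1.33, 1.61 and 1.55 CPM in Cul3+/- mice (log2 fold change -0.34, SE 0.136, edgeR adjusted p = 0.997). In P7 HIP it was Plagl1, at 14.7, 21.2 and 25.4 CPM in WT and 19.2, 26.4 and 31.5 CPM in Cul3+/- mice (log2 fold change 0.36, SE 0.144, edgeR adjusted p = 0.833), and in P7 CX Zdbf2, at 39.2, 42.4 and 77.3 and 34.5, 37.6 and 48.9 CPM (log2 fold change -0.36, SE 0.174, edgeR adjusted p = 0.9). These 3 overlapped between genotypes. In embryonic CX and CB even the smallest p was above 0.05. These were H19, at 17.8, 22.1 and 29.3 and 18.99, 28.8 and 43.5 CPM in CX (log2 fold change 0.37, SE 0.195, edgeR adjusted p = 0.991), and Igf2, at 16.3, 19.1 and 31.8 and 18.5, 23.8 and 63.4 CPM in CB (log2 fold change 0.52, SE 0.281, edgeR adjusted p = 0.988). Cul3+/- mouse 5, the highest in Igf2, had summed meninges markers of 362 CPM against at most 53.6 CPM in the other 5.

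**Figure D5:**
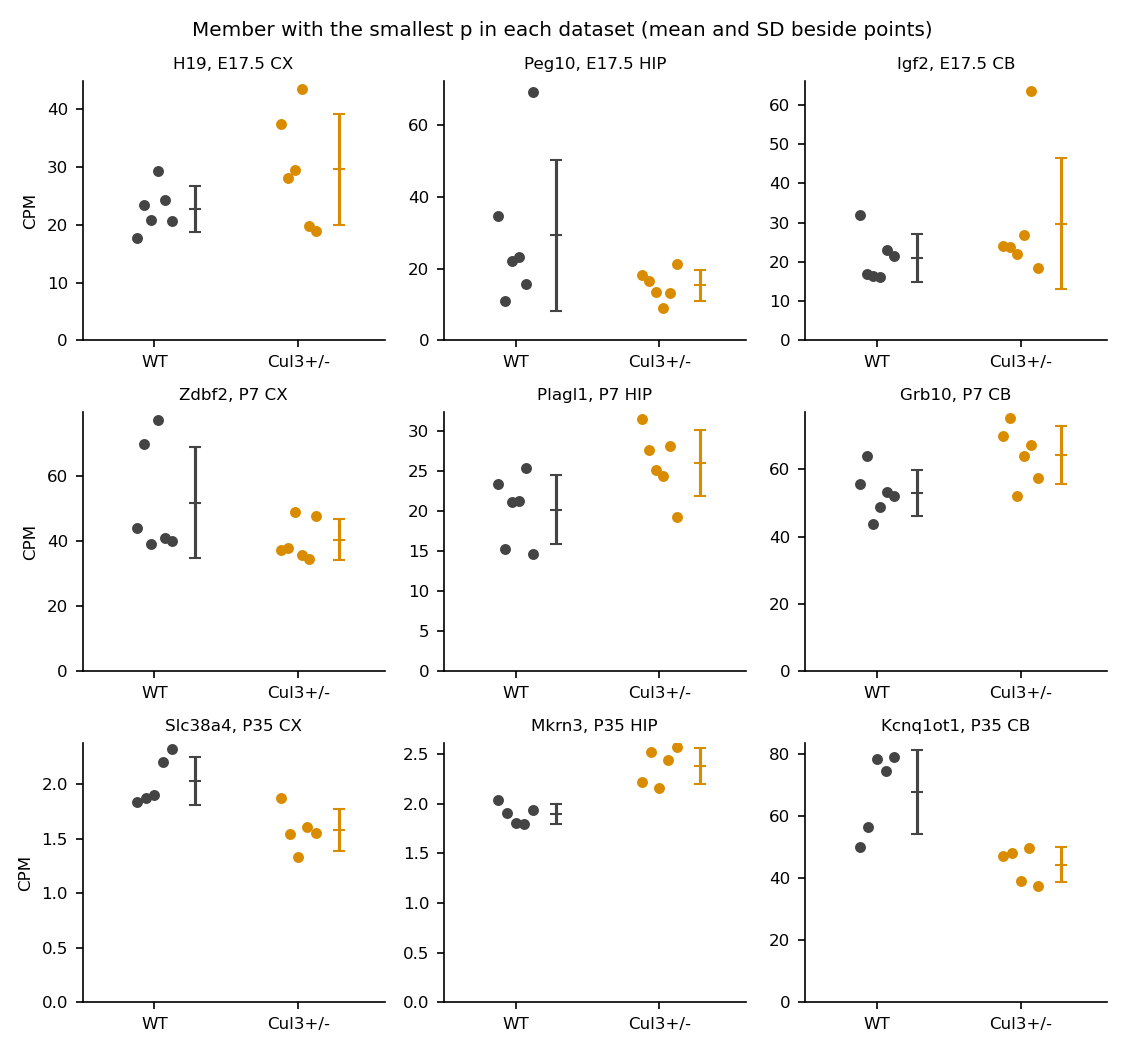
The member with the smallest p in each of the 9 comparisons of Cul3+/- with WT mice, in CPM for each mouse (points), with the mean and SD as bars beside them. The groups are apart for Kcnq1ot1 in adult CB and Mkrn3 in adult HIP, and overlap in the other 7 panels.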

How the data were processed

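Total RNA from 3 brain regions of WT and Cul3+/- mice at 3 periods was depleted of ribosomal RNA and sequenced as stranded paired-end libraries. Per the labels and the study's methods, the authors trimmed reads with Cutadapt 1.14, aligned them with STAR 2.5.3a to GRCm38 (mm10), and deposited the expected counts per gene from RSEM 1.3. The strand setting of the counting was not given in the sources used here. The p-values of the period and genotype fits measure the spread between mice. Those of the regional fits measure the spread that is left once the mouse is taken as a block.

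Expected counts were rounded. Genes were filtered with filterByExpr (10 counts, 15 in total) and normalized by TMM, and each fit used edgeR 4.0.16 (R 4.3.3) with quasi-likelihood tests and Benjamini-Hochberg adjustment over all genes tested. Period changes were fitted on the WT libraries of 1 region, regional differences on all WT libraries with the mouse as a block, and genotype on each period and region. Same-numbered mice of both genotypes deviated together in embryonic CX (6 of 6 pairs over 0.1, median correlation 0.474). Same-numbered embryos also share a name prefix, so a pairing by number and a grouping by prefix cannot be told apart. The main genotype fits used no block. DESeq2 1.42.0, other normalization, filters and tests, RUVs factors, the Cul3+/- mice, the replicate number as a block and fits without 1 mouse were tried as alternatives, and the scripts were tested on simulated data. In each region the 4 largest falls, the 2 largest rises and the 3 smallest changes, and in each genotype comparison the member with the smallest p, are given per mouse. Coordinates are from GENCODE annotation of GRCm38 and start regions from RefSeq. The members and lists were chosen with earlier results of these data known.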

Additional observations from a re-analysis of the deposited data

Results flagged for a closer look

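In 97 groups of mice for the genes given per mouse by rule, 8 held a mouse farther from its group than Dixon's test at the 95% level allows, where chance gives about 1 in 20. Of these, 2 belonged to P7 WT mouse 2, for Nnat and Copg2 in CX. A further 5 groups, Mest in the 3 regions and Copg2 in HIP and CB at P7, were looked at after their values were seen, and that mouse passed the limit in all 5. Its Mest level was 0.0300 CPM against 47.6 to 63.5 CPM in the others in CX, 0.353 CPM against 43.2 to 52.4 CPM in the others in HIP, and 0.0820 CPM against 45.9 to 60.4 CPM in the others in CB. Its Copg2 level was 89.0 CPM against 50.4 to 59.8 CPM in the others in CX, 87.1 CPM against 58.5 to 66.5 CPM in the others in HIP, and 97.1 CPM against 75.0 to 83.2 CPM in the others in CB. Its Nnat level in CX was 588 CPM against 212 to 331 CPM in the others.

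In adult WT CB, mouse 3 had Magel2 at 0.639 CPM against 0.178 to 0.240 CPM in the others and Rasgrf1 at 239 CPM against 141 to 159 CPM in the others, with hippocampus markers of 345 CPM. Blcap was at 86.6 CPM against 98.6 to 104 CPM in the others in P7 WT HIP mouse 4. Magel2 was at 3.29 CPM against 1.67 to 2.26 CPM in the others in P7 WT CB mouse 6. Igf2r was at 79.7 CPM against 67.1 to 71.7 CPM in the others in P7 WT CB mouse 1. Igf2 was at 63.4 CPM against 18.5 to 26.9 CPM in the others in embryonic Cul3+/- CB mouse 5.

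The change from E17.5 to P35 differed between regions for 22 pairs of member and region by the interaction term of the edgeR fit, given here as the difference in log2 fold change. In HIP against CX it was -1.55 for Mest, -1.46 for Grb10, -1.41 for Zdbf2, -1.36 for Asb4, 1.67 for Nnat and 2.09 for Rasgrf1. In CB against CX it was -5.11 for Slc38a4, -3.005 for Magel2, -2.26 for Ddc, -2.17 for Zdbf2, -1.82 for Mest, -1.82 for Meg3, -1.65 for Impact, -1.63 for Grb10 and -1.55 for Nnat. It was -1.16 for Nap1l5, -1.07 for Rian, -1.07 for Peg3, -1.05 for Snrpn and -1.04 for Zim1, and above 0 for Mkrn3 at 2.26 and H19 at 3.14.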

How the results depend on the processing

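The counts of members depended on the limit of 2-fold, and so did those of all genes, whose shares at the same setting stand in brackets. With no minimum fold, 12 members fell and 19 rose from E17.5 to P7 in CX (40.6% and 41.3%), 16 fell and 9 rose from P7 to P35 (34.5% and 33.2%), and 17 fell and 14 rose from E17.5 to P35 (43.8% and 41.2%). In HIP 16 fell and 16 rose (39.1% and 38.9%), then 15 fell and 12 rose (31.5% and 31.3%), and 12 rose from E17.5 to P35 (39.5%). In CB 24 fell and 5 rose by P7 (35.5% and 35.7%), 16 rose afterwards (40%) and 12 rose from E17.5 to P35 (40.1%). The members that fell from E17.5 to P35 in HIP and CB, and from P7 to P35 in CB, are not counted here. Of all genes, 41.7% fell from E17.5 to P35 in HIP and 42% in CB, against 19.6% and 20.4% with the limit. The members' excess of falls in HIP and CB is therefore given at the 2-fold limit only. Of HIP against CX the counts lower and higher became 6 and 14 at E17.5 (24.7% and 27.6%), 6 and 9 at P7 (20.8% and 28.1%), and 8 and 10 at P35 (20.1% and 24.2%), and of CB against CX 2 and 24 (30.5% and 34.3%), 21 and 10 (36.6% and 41.8%), and 14 and 11 (31.8% and 37.8%). The regional difference of the change gave 10 and 6 in HIP (22.4% and 21.9%), and 7 higher in CB (32.7%). The other count that differed with the normalization, filter or test was HIP against CX at P7, where 2 members were higher by DESeq2 and by the likelihood ratio test, and 0 lower and 3 higher without the libraries that stood apart. In Cul3+/- mice HIP against CX gave 2 lower at E17.5 and 0 higher at P7, and CB against CX gave 8 lower at P35. For genotype, RUVs with 5 factors passed 2 members in embryonic HIP (Kcnq1ot1 and Peg10), 1 in embryonic CB (Igf2) and 1 in P7 HIP (Meg3). RUVs with either number of factors passed 1 in P7 CB (Grb10), 1 in adult CX (Meg3) and 2 in adult CB (Kcnq1ot1 and Mirg), and DESeq2 and the likelihood ratio test passed 1 in adult CB. For these other settings, regional and genotype, the shares of all genes are not given here. Whether the members exceeded them cannot be told from these counts. The cause was not tested.

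Mest from P7 to P35 in CX, 0.06 in WT mice, was -0.0132 in Cul3+/- mice, -0.20 without the libraries that stood apart or P7 mouse 2, and between -0.20 and 0.17 as each mouse was left out (-0.00 without adult mouse 3). Leaving out each mouse gave 1 to 2 members higher in HIP than in CX at P7 and 0 to 1 lower at P35, and the regional fits were repeated without each of the 5 adults, not without the younger mice. Kcnq1ot1 in adult CB ranged from -0.72 to -0.57. Upper-quartile normalization moved the median change of all genes in HIP from E17.5 to P35 by -0.10. With the replicate number as a block no genotype call changed and the counts stayed within 1.5 times, with 5 members that fell and 11 that rose by P7 in CX. In the 8 datasets other than embryonic CX at least 1 same-numbered pair of mice did not deviate together. In simulated data for P35 against E17.5 in WT CX, genes were called at an adjusted p of at most 0.1 with no minimum fold. There, 80% of 50 genes changed by 1 on the log2 scale were recovered, with 15 others called among 18252 genes. Only a small set of genes was changed in the simulation, and the rest kept 1 level over the periods. In the real contrast 82.6% of genes had an unadjusted edgeR p under 0.05, so these rates need not carry over to it. Recovery under the 2-fold limit used for rises and falls was not measured.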

Other observations

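Imprinted genes outside the members showed courses of their own from E17.5 to P35 in WT mice, and those named here were chosen after their values were seen. Htr2a, a serotonin receptor, rose in CX by 3.14 and in HIP by 3.78 on the log2 scale and fell in CB by 1.79 (edgeR adjusted p = 1.39e-11, 1.03e-10 and 1.80e-09). Zrsr1, a splicing factor, rose by 2.00, 2.01 and 1.90 in CX, HIP and CB, and Cd81, a tetraspanin of the Kcnq1 domain, by 1.47, 1.19 and 1.39. Airn, the antisense RNA at Igf2r, changed by -1.10 in HIP and 3.40 in CB (edgeR adjusted p = 1.30e-05 and 1.48e-13). H13, a peptidase gene, fell by 1.52 in CX and 1.37 in HIP (edgeR adjusted p = 1.15e-14 and 9.42e-13).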
